A study of Mus musculus with 12 samples.

Results

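The shortest labelling times of a 4-thiouridine (4sU) time course in NIH-3T3 cells were compared: 30 min against 15 min. These 4 libraries (15 min replicates A and B, 30 min replicates A and B) are 4 of the 12 in the series, and were chosen by their labelling time. NIH-3T3 is an immortalised mouse fibroblast line, here of wild-type genotype. By the labels, all 4 libraries came from cells given 4sU at 800 µM, and they differed only in labelling time and replicate letter. The other groups were cells labelled for 60, 90 or 120 min at the same dose and cells without 4sU, each with replicates A and B. Of the 17419 genes in the table, the 9065 whose estimated read count averaged at least 100 over the 12 libraries were described. The labels do not say whether A and B were separate cultures, so the errors given here measure only the spread between libraries, which may be technical.

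4sU is a uridine analogue that cells take up and build into the RNA they are making. In SLAM-seq, iodoacetamide alkylates the incorporated 4sU, which is then read as C in place of U, so that reads from RNA made during the labelling can be told from reads of older RNA. The share of a gene's RNA that is new, the new-to-total RNA ratio (NTR), depends on how long the RNA lives: a short-lived transcript is replaced soon, and a stable one holds mostly old molecules. Immediate early transcription factors, phosphatases that switch off MAP kinase signalling and chemokines are textbook examples of short-lived messages, many with AU-rich elements in the 3′ untranslated region (3′ UTR). Messages of ribosomal proteins, glycolytic enzymes and extracellular matrix proteins are textbook examples of long-lived ones. Before new RNA can enter a poly(A)-bearing or spliced pool it must also be elongated and processed, which takes longer for a long gene than for a short one.

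Sequences of genes with early new RNA are shown here, before the values. The following are the 30 bases around an AU-rich 9-mer in the 3′ UTRs of the 8 genes with the highest NTR at 30 min among those that hold it, with the 9-mer UUAUUUAUU in capitals, read from GENCODE M21 transcripts. The 9-mer was searched on the transcript strand of the longest 3′ UTR of each protein-coding gene, with overlapping matches counted.
Dusp1: ugguccUUAUUUAUUuaacaccccccucac
Cxcl1: auguauUUAUUUAUUccacaaagugugugg
Zfp36: acgacuUUAUUUAUUguauuaagauuuuau
Lif: gggccuUUAUUUAUUauuuaaaacuucaaa
Zfp747: auaaaaUUAUUUAUUucuaaauaacuguaa
Rgs16: cuauugUUAUUUAUUgugguuuguuugccu
Csrnp1: cugaauUUAUUUAUUuuuuuauguuuuucu
Dlx2: ugggggUUAUUUAUUaugaaagcaacauac
Dusp1 encodes a MAP kinase phosphatase, Cxcl1 a neutrophil chemokine, Zfp36 (tristetraprolin) a protein that binds AU-rich elements and triggers decay, Lif a cytokine and Rgs16 a regulator of G protein signalling. Their mean NTRs at 30 min were between 55.2% (Dlx2) and 90.6% (Dusp1). The 9-mer was found in 12 of the 36 protein-coding genes with a known 3′ UTR whose mean NTR at 30 min was above 50% (33.3%), and in 772 of the 8941 counted genes with a known 3′ UTR (8.63%).

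Promoters of 3 of the genes that lead at both times follow, as 250 bases before and 50 bases after the RefSeq start site (build GRCm38.p6), 5′ to 3′ on the gene's strand. Capitals mark the cAMP response element TGACGTCA, its core TGACG on either strand, and the NF-kB binding motif (kB site). They are shown because these genes held the most new RNA. All motifs were searched on both strands, and TGACG lies within TGACGTCA.
Dusp1, chr17:26508423-26508722, minus strand: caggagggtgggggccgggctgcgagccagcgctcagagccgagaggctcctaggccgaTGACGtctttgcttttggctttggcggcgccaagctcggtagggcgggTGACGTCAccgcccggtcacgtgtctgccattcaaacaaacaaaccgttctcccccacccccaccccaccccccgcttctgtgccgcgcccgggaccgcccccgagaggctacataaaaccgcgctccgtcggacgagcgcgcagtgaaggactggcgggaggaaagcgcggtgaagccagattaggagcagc
Snhg12, chr4:132308428-132308727, plus strand: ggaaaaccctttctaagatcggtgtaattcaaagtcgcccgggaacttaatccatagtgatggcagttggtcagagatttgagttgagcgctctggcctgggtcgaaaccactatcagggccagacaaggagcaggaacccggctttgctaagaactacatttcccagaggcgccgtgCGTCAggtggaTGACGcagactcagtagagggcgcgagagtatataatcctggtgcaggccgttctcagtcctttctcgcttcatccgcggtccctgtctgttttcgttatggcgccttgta
Cxcl1, chr5:90890995-90891294, plus strand: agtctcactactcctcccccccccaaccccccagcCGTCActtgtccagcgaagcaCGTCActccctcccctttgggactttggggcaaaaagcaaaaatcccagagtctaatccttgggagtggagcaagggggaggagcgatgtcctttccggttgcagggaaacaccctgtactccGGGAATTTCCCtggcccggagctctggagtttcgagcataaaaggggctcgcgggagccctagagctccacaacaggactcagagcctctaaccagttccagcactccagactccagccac
Promoters were matched by symbol for 7237 of the counted genes. TGACGTCA was found in 3.76% of them and in 5 of the 33 promoters of genes above 50% at 30 min (15.2%). The core TGACG, marked in all 3 promoters shown, was found in 38.6% of all promoters and in 42.4% of those of genes above 50%. The CArG box, the binding motif of serum response factor, was found in 1.59% of all promoters and in 3 of those 33 (9.09%). The kB site was found in 6.0% of all promoters, in 6.06% of those of genes above 50% at 30 min, and in 6 of the 9 promoters of the NF-kB feedback and chemokine list (66.7%). TATAAA was found in 7.86% of all promoters, in 9.09% of those of genes above 50% at 30 min, and in 6 of 16 among the Egr, Ier and other immediate early genes (37.5%). For the genes above 50%, the shares with TGACG, the kB site and TATAAA were therefore near those of all promoters. A stretch of C and 5 pyrimidines between 5 bases before and 11 bases after the start, the mark of ribosomal protein genes and some of their relatives, was found in 12.7% of all promoters, in 43.5% of the ribosomal protein promoters (27 of 62) and in 2 of the 5 promoters of small nucleolar RNA host genes. A match is a string of letters and was not examined for binding.

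The cells carried the fibroblast markers: 8 of 8 (among them Col1a1, Vim and Thy1) were above 10 CPM (counts scaled to library size) in every one of the 4 libraries, with a sum between 9710 and 10000 CPM. Of the other markers listed, 2 of 4 epithelial, 2 of 2 endothelial and 2 of 3 immune genes were present in the data. The epithelial ones summed to at most 0.44 CPM, the endothelial ones to at most 1.7 CPM and the immune ones to at most 5.36 CPM. Cdh1, Krt8, Ptprc and Pecam1 were below 1 CPM. Total reads per library were 11206055 and 10973014 at 15 min and 11758117 and 9917026 at 30 min. Among the genes next to the count minimum, Cluap1 just inside it (mean count 100.1) had an NTR of 0%, 0%, 3.16% and 0% in the order 15 min A, 15 min B, 30 min A and 30 min B, and Arv1 just outside it (99.92) had 2.91%, 0%, 1.22% and 4.63%. No NTR of the unlabelled libraries was used here, so a value that sequencing errors alone give is not known for these genes.

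At 15 min nearly all RNA was old, and at 30 min most genes held some new RNA. In RNA from a whole culture, fewer cells that make a transcript and less new RNA per cell cannot be told apart. The median NTR over the 9065 genes was 1.34% in 15 min A, 0.67% in 15 min B, 5.12% in 30 min A and 5.29% in 30 min B. The group means of these medians were 1.01% ± 0.474 (SD, n = 2) at 15 min and 5.21% ± 0.120 (SD, n = 2) at 30 min, and did not overlap. The 15 min libraries differed from each other by close to a factor of 2, far more than the 30 min libraries did. An NTR of exactly 0 was given for 1035 genes (11.4%) in 15 min A and 1860 genes (20.5%) in 15 min B, against 157 (1.73%) and 203 (2.24%) at 30 min. The highest NTR of any counted gene was 38.3% in 15 min A, 24% in 15 min B, 95.1% in 30 min A and 92.0% in 30 min B.

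**Figure D1:**
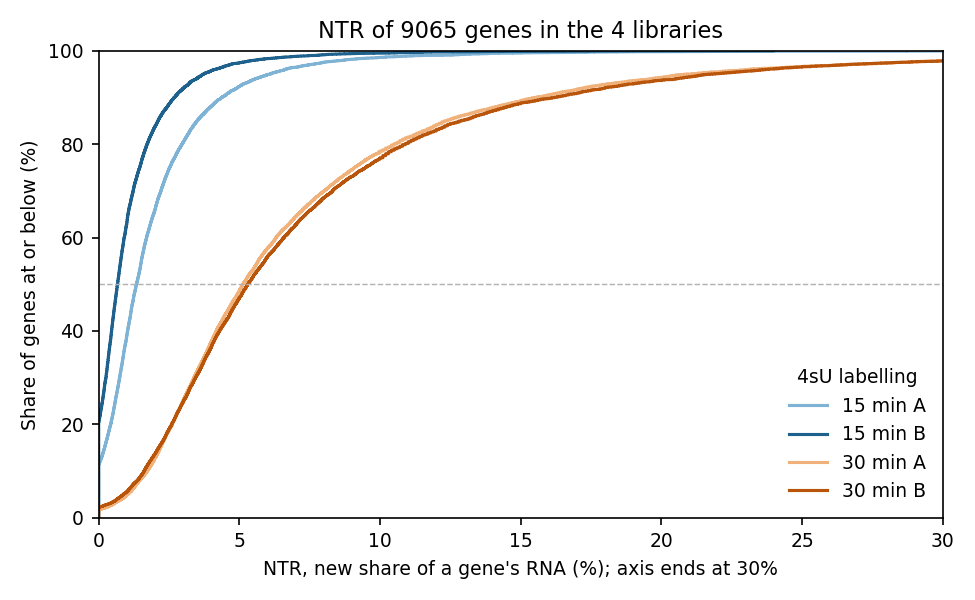
Cumulative share of the 9065 counted genes (y axis, percent) at or below an NTR (x axis, percent, ending at 30%) in the 4 libraries, one line per library; the dashed line marks 50% of genes. The 15 min lines cross it at 0.67% and 1.34%, and the 30 min lines, which nearly coincide, at 5.12% and 5.29%.

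A gene was said to hold new RNA when the lower end of the authors' 90% interval of the NTR (its 0.05 quantile) was above 2% in both libraries of a time. At 15 min, 562 genes met this (6.2% of 9065), and at 30 min 5877 genes did (64.8%). Of these, 542 met it at both times, 5335 at 30 min alone and 20 at 15 min alone, while 3168 genes met it at neither. The 15 min count was decided in large part by replicate B: taken singly, 15 min B had 827 genes with the 0.05 quantile above 2% and 15 min A had 1941. The intervals of all 4 libraries were separated, with the lower ends at 30 min above the upper ends at 15 min, for 3325 genes (36.7%), and for 5110 genes without 15 min A. The width of the interval limits all 3 counts. For genes with 100 to 200 counts its median was 7.07 and 5.14 percentage points at 15 min and 11.1 and 13.1 at 30 min, and for genes with at least 1000 counts it was 1.42 and 0.97 at 15 min and 2.55 and 2.94 at 30 min.

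In a limma fit of log2(NTR + 0.01) on the 4 libraries, with Benjamini-Hochberg adjustment over all 9065 genes, 6094 genes were higher at 30 than at 15 min (67.2% of genes tested) and 8 were lower (0.0883%). The pseudocount understates the change of genes with a low NTR. The median log2 difference was 1.64 with a median SE of 0.444. For 7927 genes (87.4%) both 30 min values were above both 15 min values, and for 31 genes both were below. The number of genes past the limma threshold was not stable when a library was left out. Such a fit takes its spread only from the time that keeps both libraries, and the 15 min libraries lay further apart. These fits therefore cannot show on which library the number depends. Of the 2700 genes with a mean count of 1000 or more, between 1781 and 2559 passed with any single library left out. A two-sided exact permutation test of a single gene has a smallest possible p of 0.333 with these 4 libraries, so only the fit across all genes was used.

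The NTR rose by more than the labelling time did. The ratio of the median NTRs, 30 to 15 min, was 4.98 (3.82 to 7.9 over the 4 pairs of libraries) for a doubled labelling time, and the ratio of 60 to 30 min was 2.95. These values use the most probable NTR of each gene (the posterior maximum), which was exactly 0 for many genes at 15 min. From the posterior mean instead, the medians were 2.23% and 1.37% at 15 min and 5.9% and 6.37% at 30 min, which gives smaller ratios. Over the 4790 genes with a mean NTR of at least 1% at 15 min, the median ratio was 4.08 (interquartile range 2.7 to 5.75), with 3.06 between the A libraries and 4.57 between the B libraries. Of these genes, 4132 (86.3%) had a ratio above 2 and 158 had one below 1. This minimum selects genes on the 15 min value, which is one side of the ratio. A straight line through the medians at 15 and 30 min reached 0 at 11.2 min of labelling (9.68 to 12.8 min over the pairs of libraries), and one through those at 30 and 60 min at 14.6 min. The crossing is a description of these medians and was not tested. A smaller ratio, as from the posterior mean, puts it earlier.

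The order of genes was only in part the same from library to library. Across the 9065 genes, which are not independent replicates, the Spearman rho was 0.40 between the 15 min libraries and 0.770 between the 30 min libraries, and 0.426 to 0.520 between a 15 and a 30 min library. In the 2700 genes with a mean count of 1000 or more it was 0.584, 0.875 and 0.536 to 0.637.

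The genes that were furthest ahead at 15 min included non-coding hosts of small nucleolar RNAs, a chemokine, a MAP kinase phosphatase and an atypical IkB protein. Only 8 genes had a mean NTR above 20% at 15 min, and 70 had one above 10%. Snhg12, a spliced host transcript whose introns carry small nucleolar RNAs (chr4:132308623-132311024 on GRCm38, 5 exons, 2.4 kb), led with 38.3% in 15 min A, 24% in 15 min B, 85.5% in 30 min A and 91.8% in 30 min B. Both 30 min values were above both 15 min values, and its log2 difference was 1.51 ± 0.307 (SE; limma adjusted p = 0.0136). The lincRNA 5430416N02Rik followed with 33%, 18.4%, 95.1% and 67.2% in the same order of libraries, and its 30 min replicates lay far apart. Snhg15 had 33.2%, 16.2%, 63.2% and 75.7%, Snhg20 had 31.1%, 13.3%, 76.1% and 81.5%, and Snhg16 had 26.4%, 17.4%, 79.2% and 77.1%. In all 3, the 15 min A value was the higher of the 15 min pair.

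Dusp1 (chr17:26505590-26562128), whose product dephosphorylates active MAP kinases, had the highest mean NTR at 30 min. Its values were 28.7% and 17.4% at 15 min and 89.2% and 92.0% at 30 min, with 1347 to 1673 reads per library behind them. The log2 difference was 1.97 ± 0.321 (SE; limma adjusted p = 0.0121), and a rise of 67.5 percentage points left less than 10% old RNA at 30 min. Cxcl1 (chr5:90891241-90893115) had 29.5%, 19.8%, 76.3% and 88.9% from 97 to 145 reads per library, so its intervals were wide. Nfkbiz, an atypical IkB protein of the nucleus, had 33.4%, 11.2%, 63.3% and 77.0%, with the widest spread of the leading genes at 15 min. The intervals of all 4 libraries were separated for Dusp1 and Cxcl1 and not for Nfkbiz.

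The largest rise between the times belonged to Gadd45g, a growth arrest and DNA damage gene of 1.79 kb, which went from 17.4% and 12.6% to 81.8% and 91.1%. This was 71.4 percentage points (log2 difference 2.46 ± 0.297 SE; limma adjusted p = 0.0121). The lincRNA Gm49890 rose by 58.6 points, from 22.5% and 10.6% to 73.0% and 77.3%, and Cxcl1 and Snhg12 by 58.0 and 57.5 points. Mir17hg, the host transcript of the miR-17 to miR-92 cluster, had 22.7%, 14.3%, 81.3% and 69.5%. In each of these the 30 min values lay above the 15 min values of the same gene with no overlap.

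**Figure D2:**
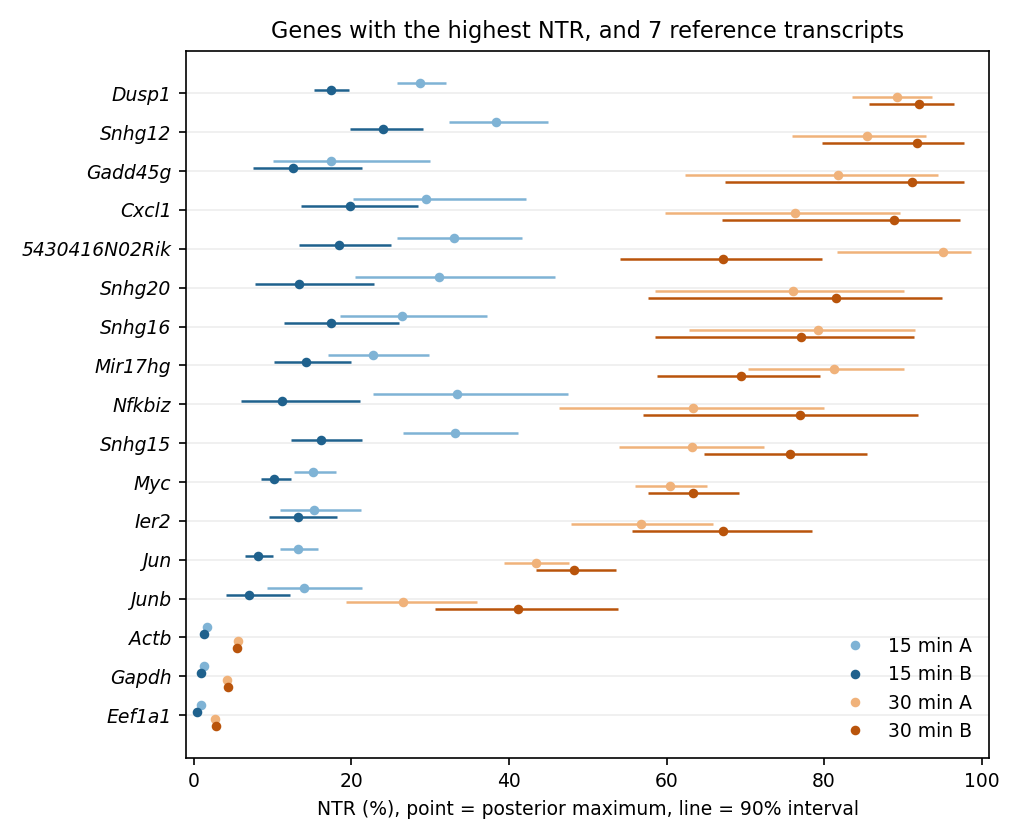
NTR (x axis, percent) of the genes with the highest mean NTR at 15 or 30 min and of 7 reference transcripts (y axis), with a point for each of the 4 libraries and a line for its 90% interval. Blue points are 15 min and orange points 30 min; Dusp1 reached 89.2% and 92.0% at 30 min, while Actb, Gapdh and Eef1a1 stayed below 6%.

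Reference transcripts spanned the whole range. Myc, a short-lived transcription factor message, had 15.1%, 10.2%, 60.5% and 63.4% (log2 difference 2.23 ± 0.322 SE; limma adjusted p = 0.0121). The single-exon genes Ier2 and Jun had 15.2%, 13.2%, 56.7% and 67.2%, and 13.2%, 8.1%, 43.4% and 48.3%. Junb lagged behind them with 14%, 6.96%, 26.5% and 41.1%. Of the long-lived messages, Actb had 1.65%, 1.24%, 5.62% and 5.43%, Gapdh 1.27%, 0.92%, 4.25% and 4.28%, and Eef1a1 0.93%, 0.38%, 2.66% and 2.75%. Each of the 3 was called higher at 30 min (limma adjusted p = 0.0237 for Actb, 0.0269 for Gapdh and 0.0393 for Eef1a1), and at 30 min each stood near the median of all genes or below it. Fos, with a mean count of 22.9, was below the count minimum. It was listed at 0% in both 15 min libraries and at 100% and 97.2% at 30 min from 15 to 31 reads per library, and is not interpreted.

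By 30 min, 45 genes had a mean NTR above 50%, with both libraries above 50% for 36 of them, and 601 genes had passed it at 60 min. At 15 min there were 0 such genes. Of the 45, 32 belong to at least 1 of the gene lists used here, 9 are not protein-coding, and their median genomic span was 4.26 kb with 4 exons, against 26.0 kb and 10 exons for all counted genes. Those outside the lists, named after their values were seen, include Arrdc3 (11.2%, 11.5%, 76.2% and 54.3%), an arrestin-like adaptor, and Socs3 (29.2%, 7.7%, 59.9% and 60.4%), a cytokine signalling inhibitor. Ccnl1, a cyclin tied to splicing, had 13.9%, 6.29%, 58.1% and 61.0%. Ptgs2, the inducible cyclooxygenase, had 14%, 9.4%, 49.0% and 53% and was the most abundant of the 45, with a mean count of 9265. Dnm3os, annotated as antisense, had 18.1%, 17.9%, 61.6% and 56.8%; no source used here says whether counting used strand, so its reads cannot be told from those of the gene it overlaps.

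Immediate early genes other than the AP-1 subunits had the highest medians after the small nucleolar RNA host genes at 15 and 30 min. The list mixes transcription factors (Egr, Nr4a) with kinases, growth arrest proteins and secreted proteins (Plk, Gadd45, Ccn). Among 20 counted Egr, Ier and other immediate early genes, the median NTR was 9.75% at 15 min, 47.4% at 30 min and 87.0% at 60 min, against 1.05%, 5.25% and 15.5% over all counted genes (list medians are medians of the genes' mean NTR). New RNA at 15 min was held by 16 of 20, against 6.2% of all genes, and at 30 min by 20 of 20. The limma test called 19 of 20 higher, and 18 of 20 had separated intervals. Over all genes these shares were 67.2% and 36.7%, to be set beside the same counts in the lists that follow. Ier3, an apoptosis regulator, had 20.3%, 13.5%, 72.4% and 67.6%, and Egr1, a zinc finger transcription factor, 13.2%, 16.5%, 55.9% and 68.5%. Srf, the serum response factor that drives many of these genes, was the lowest of the list with 0.61%, 1.09%, 5.42% and 6.96%. The 15 min libraries kept their order, A above B, in 18 of the 20 members, Egr1 and Srf being the exceptions.

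AP-1 subunits, the Fos, Jun and Maf proteins that pair on the same sites, were lower than this list. The median of the 9 counted members was 4.60% at 15 min, 20.8% at 30 min and 55.3% at 60 min, with 3 of 9 holding new RNA at 15 min, 9 of 9 at 30 min, and 8 of 9 called higher. After Jun, Fosl2 had 10.0%, 4.57%, 38.5% and 38.7%. Jdp2, a repressive member, was lowest with 2.48%, 0%, 5.54% and 12.6%.

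All 11 counted Klf genes, zinc finger factors that bind GC-rich promoters, held new RNA at 30 min and all 11 were called higher. Their median was 4.84% at 15 min, 27.6% at 30 min and 64.5% at 60 min. Klf2 had 18.9%, 11.9%, 69.1% and 63.0%, Klf10 12.6%, 8.5%, 48.2% and 53.5%, and Klf6 13.2%, 6.5%, 47.7% and 47.0%, while Klf12 was lowest with 2.46%, 1.45%, 15.3% and 8.9%. In the Myc, Max and Mxd network, Myc stood apart from its partners. The median of the 8 was 1.16% at 15 min and 7.25% at 30 min, and Max, the obligate partner of Myc, had 2.18%, 0.28%, 5.36% and 6.51%. Mnt, a Max-binding repressor, came next after Myc with 7.39%, 4.46%, 20.1% and 20.7%.

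Feedback inhibitors of signalling had the next highest list medians at 15 and 30 min, below the immediate early genes (9.75% and 47.4%). For the MAP kinase feedback list (Dusp phosphatases, Sprouty and Spred proteins) the median of 14 genes was 6.53% at 15 min and 32.7% at 30 min, with 8 of 14 holding new RNA at 15 min, 14 of 14 at 30 min and 12 of 14 called higher. Dusp6, the ERK phosphatase, had 15.8%, 13.6%, 66.6% and 55.6%, and Dusp5 had 15.0%, 5.87%, 52.6% and 48.0%. Spred3 was lowest, with 5.77%, 1.03%, 7.42% and 10.2%. Among 9 Id, Hes and TGF-beta feedback genes the median was 7.40% at 15 min and 30.3% at 30 min. Id1, an inhibitor of basic helix-loop-helix factors, had 18.9%, 11.4%, 69.6% and 55.3%, Smad7, the inhibitory Smad, 17.7%, 4.82%, 59.0% and 52.7%, and 8 of 9 were called higher.

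Several regulators of AU-rich element decay and deadenylation were themselves early, and others were not. The 10 had a median of 5.79% at 15 min and 28.5% at 30 min. New RNA at 15 min was held by 5 of 10, and 10 of 10 were called higher. Zfp36 had 25.7%, 13.8%, 84.9% and 59.3%, its relatives Zfp36l1 10.7%, 9.44%, 47.6% and 44.8% and Zfp36l2 8.13%, 4.69%, 33.1% and 31.1%. Hnrnpd (AUF1), in contrast, had 1.0%, 0.5%, 2.81% and 3.66%, and all of its values lay below those of the 3 Zfp36 genes at the same time. Khsrp (4.47%, 1.62%, 8.92% and 9.21%) and Elavl1 (1.71%, 1.14%, 8.0% and 9.73%) also lay below the 3 Zfp36 genes in each library.

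The NF-kB list held ligands, inhibitors and subunits that differed widely. Its 15 genes had medians of 2.48% at 15 min and 18.3% at 30 min, 5 held new RNA at 15 min, 14 did at 30 min, and 14 were called higher. Among the secreted ligands, Cxcl1 and Lif (17.3%, 12.2%, 74.7% and 63.2%) led, Cxcl5 had 7.49%, 7.76%, 37.0% and 31.5%, and Ccl2 had 4.68%, 3.62%, 16.9% and 19.7%. Nfkbia, the inhibitor IkB alpha, had 7.74% and 3.04% at 15 min, short of the criterion for new RNA, and 48.9% and 47.3% at 30 min. The subunit genes Nfkb1 (1.52%, 0.72%, 4.93% and 6.51%) and Nfkb2 (1.14%, 0.17%, 4.85% and 3.48%) were close to the median of all genes. The subunit genes Rel (4.18%, 0.61%, 20.7% and 22.3%) and Relb (0.86%, 0.12%, 8.74% and 10.7%) were above it at 30 min. Nfkbib was lowest of the list at 30 min with 1.2% and 4.94%.

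Stress and cell cycle genes were intermediate. In the p53 target list (14 genes) the median went from 3.25% to 17.8% and 13 of 14 were called higher; Plk2, a polo-like kinase, had 11.8%, 7.94%, 51.9% and 50.9%, and Cdkn1a (p21) 5.9%, 3.71%, 25.5% and 26.7%, while Bax had 2.11%, 0.36%, 4.6% and 4.96% and Ei24 was lowest with 3.03% and 3.66% at 30 min. In the integrated stress response list (16 counted genes) the median went from 3.0% to 14.6% and 14 of 16 were called higher. Its phosphatase subunit Ppp1r15a (GADD34) had 15.9%, 7.98%, 44.9% and 55.1%, Ddit4 13.8%, 5.87%, 45.1% and 44.2%, and the serine synthesis enzyme Phgdh was lowest with 0.6%, 0.21%, 0.99% and 2.07%. Of the 11 counted clock genes, with medians of 1.45% and 11.8%, Nfil3 led with 7.87%, 5.09%, 27.8% and 51.2%, and Arntl (BMAL1), the activator of the clock, was lowest, with 1.96%, 0.94%, 3.06% and 3.95%.

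Among G1 cyclins and cell cycle brakes, inhibitors of cyclin-dependent kinases and the kinases themselves overlapped. Cdkn1b (p27) had 7.04%, 2.51%, 23.1% and 22.4%, Ccnd1 (cyclin D1) 1.74%, 0.62%, 5.49% and 4.91%, and Cdk4 0.83%, 0.39%, 3.28% and 2.95%. The kinase Cdk6 had 2.6%, 1.53%, 12.4% and 11.8%, close to the inhibitor Cdkn2d (4.17%, 1.47%, 10.3% and 13.8%) and above the inhibitor Cdkn2c at 30 min (6.49% and 7.34%). The list medians were 1.89% and 9.71%, and 12 of 13 were called higher. The 10 Bcl2 family genes had medians of 1.53% and 8.35%, with Mcl1, a short-lived survival protein, at 4.95%, 3.58%, 23.1% and 21.5%. Of the 10, 7 were called higher (70.0%), near the share of all genes (67.2%). All 16 Clk kinases and SR splicing factors were called higher, with medians of 2.46% and 11.8% and Clk1 at 7.44%, 3.49%, 36.6% and 30.5%. In the 22 mitosis genes the medians were 0.938% and 6.55% and 20 were called higher, and in the 18 heat shock protein genes 1.31% and 6.04% with 15 called higher.

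Small nucleolar RNA host genes had the highest medians of any list at 15 and 30 min, but not at 60 min. Over 7 counted members they were 21.9% after 15 min of labelling, 69.5% after 30 min and 76.3% after 60 min. Of the 7, 5 held new RNA at 15 min, 7 at 30 min and 6 were called higher. Of 19 genes in that list 8 were in the table, and the others were not analysed here. The members fell far apart: Snhg6 had 17%, 14.4%, 65.8% and 60.5%, Snhg18 10.2%, 3.72%, 8.61% and 18.1%, and Snhg4 0.91%, 0.48%, 3.56% and 4.93%. The entry named Snhg4 is annotated as protein-coding, with 15 exons over 34.3 kb, so its value is not that of a non-coding host transcript alone. Other nuclear long non-coding RNAs were lower, with medians of 3.44% and 15.5% and 8 of 8 called higher. Neat1, the scaffold of paraspeckles, had 16.2%, 11%, 38.1% and 41.1%, Malat1, a speckle RNA, 6.19%, 3.62%, 12% and 13.3%, and Meg3 0.68%, 0.23%, 2.08% and 3.23%. Of all 51 counted long non-coding genes 16 held new RNA at 15 min (31.4%) and 44 at 30 min (86.3%), against 6.06% and 64.7% of the 9009 protein-coding genes.

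Numbered zinc finger genes (Zfp), many of them KRAB-type repressors, had medians above those of all genes at both times. Over the 180 counted of 351 in the table the 15 min medians were 2.68% and 1.47%, the 30 min medians 16.6% and 15.6%, and the mean level at 60 min gave 46.3%. New RNA was held by 31 (17.2%, against 6.2% of all genes) at 15 min and 173 (96.1%, against 64.8%) at 30 min, and 162 were called higher. The ratio of the list medians was 7.73, against 4.98 over all genes. Zfp747 had 9.89%, 5.71%, 54.7% and 68.1%, Zfp568 15.0%, 4.08%, 44.9% and 56.4%, and Zfp944 was lowest with 0%, 2.17%, 3.42% and 1.42%. Zfp36, which is an RNA-binding protein and no KRAB repressor, is counted in this list by its name.

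**Figure D3:**
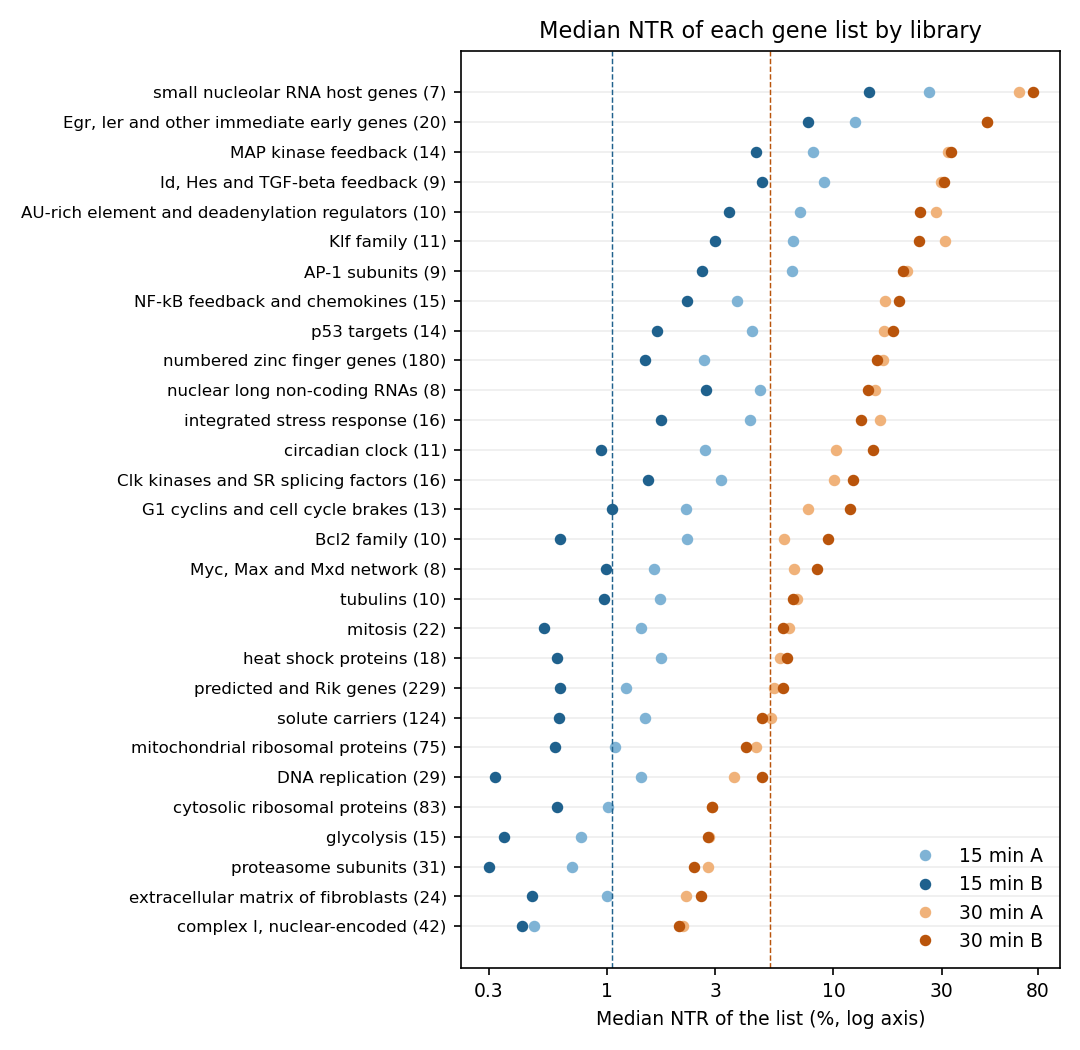
Median NTR (x axis, percent, log axis) of each of the 29 gene lists with counted members (y axis, number of counted genes in parentheses) in each of the 4 libraries; dashed lines mark the median of the genes' mean NTR over all counted genes at 15 min (blue) and 30 min (orange). Every list had both 30 min medians to the right of both 15 min medians, from complex I genes (2.16% and 2.08% at 30 min) to small nucleolar RNA host genes (65.8% and 75.7%).

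Cytosolic ribosomal protein genes and complex I genes had NTRs below the typical gene, and mitochondrial ribosomal protein genes were close to it. For the 83 cytosolic ribosomal protein genes the median was 0.78% at 15 min, 2.96% at 30 min and 5.84% at 60 min. Of these, 53 were called higher (63.9%), near the share of all genes (67.2%). Their median read count was 7630, and 65 of 83 (78.3%) had separated intervals, against 36.7% of all genes. Rpl10a had 4.33%, 3.0%, 14.2% and 15.6%. Rpl7a had 8.49%, 5.4%, 11% and 10.3%, and then 11.8% at 60 min and 15.9% at 120 min; its log2 difference was 0.58 ± 0.397 (SE; limma adjusted p = 0.222). Many ribosomal protein genes have near-identical processed copies, and reads could be divided among them. Mitochondrial ribosomal protein genes had medians of 0.84% and 5.05%, 54 of 75 called higher (72.0%, against 67.2% of all genes), and nuclear genes of respiratory complex I 0.477% and 2.16%, 15 of 42 called higher.

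For the 24 counted genes of the extracellular matrix, the main secreted products of fibroblasts, the medians were 0.795% at 15 min, 2.41% at 30 min and 6.01% at 60 min, and 9 were called higher. Thbs1 (thrombospondin 1), which is also an early growth factor response gene, led with 4.94%, 2.6%, 16.3% and 14%. Fibronectin (Fn1) had 2.49%, 1.66%, 2.71% and 2.6%, the type I collagen chain Col1a1 1.78%, 1.02%, 2.59% and 2.64%, and Col5a2 was lowest with 0.85%, 0.52%, 1.09% and 0.98%. Glycolytic enzymes had medians of 0.525% and 2.91% with 10 of 15 called higher, and Hk2 led with 3.05%, 0.67%, 9.83% and 12%. Proteasome subunits had 0.57% and 2.62% with 19 of 31 called higher, DNA replication genes 0.775% and 4.15% with 23 of 29, tubulins 1.27% and 6.65% with 9 of 10, and solute carriers 1.17% and 5.12% with 86 of 124. The predicted and Rik genes, a group by name alone, had 1.06% and 6.02% and 154 of 229 called higher. The shares called higher among glycolytic enzymes (66.7%), solute carriers (69.4%) and the predicted and Rik genes (67.2%) were at that of all genes (67.2%). Among proteasome subunits the share was 61.3%, and among DNA replication genes 79.3%. Of the 57 replication-dependent histone genes in the table, 0 passed the count minimum, and mitochondrially encoded genes were not analysed here.

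**Figure D4:**
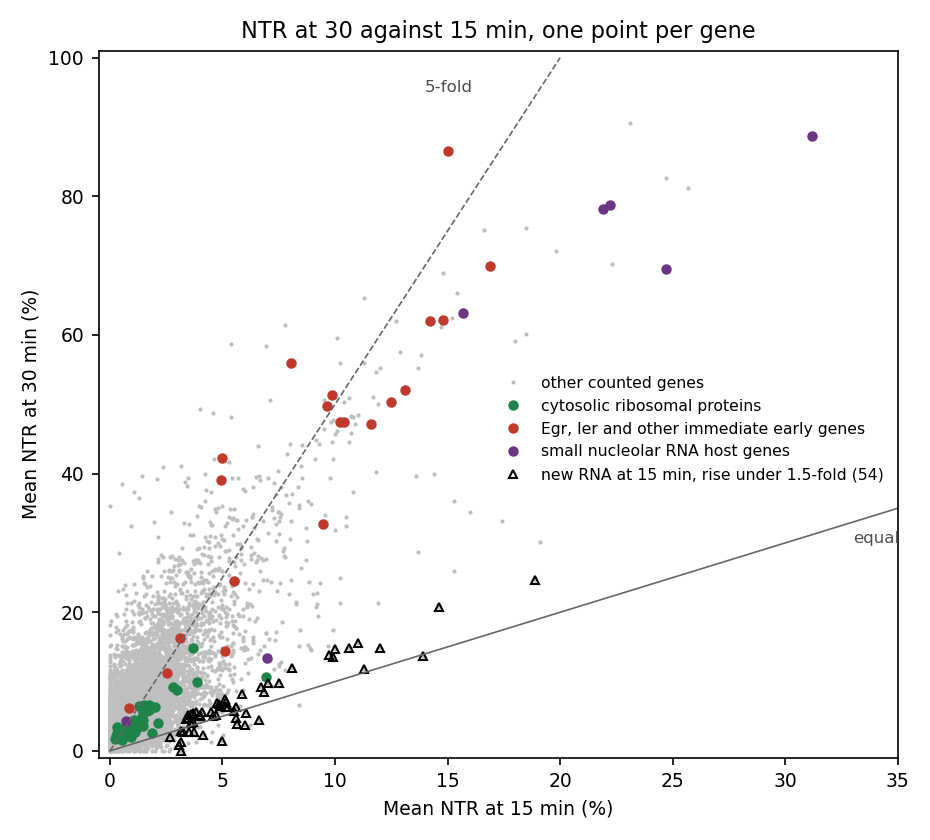
Mean NTR at 30 min (y axis, percent) against mean NTR at 15 min (x axis, percent), one point per counted gene, with 3 lists in colour and open triangles for the 54 genes that held new RNA at 15 min and had a rise of under 1.5-fold; the lines mark equal values and a 5-fold rise. Snhg12 is the point furthest right (31.2% and 88.7%), and the triangles lie along the line of equal values.

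Not every early value was followed by a rise. Of the 562 genes that held new RNA at 15 min, 54 (9.61%) had a mean NTR at 30 min under 1.5 times that at 15 min. Their medians were 5.05% at 15 min, 5.59% at 30 min and 31.7% at 120 min, against 5.2%, 20.1% and 85.3% for all 562. The examples with the highest values at 15 min were chosen after their values were seen. Rpia, an enzyme of the pentose phosphate pathway, had 20.7%, 17.1%, 20.3% and 29.0%, Rab32, a small GTPase, 17.5%, 11.7%, 20.5% and 20.9%, and Hmgn3, a nucleosome-binding protein, 17.3%, 10.6%, 16.5% and 10.9%. In Hmgn3 the times overlapped, and its NTR was 18% at 120 min. Since the genes were picked for a high value at 15 min, some drop towards the other genes is built into the choice.

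The 8 genes called lower at 30 min, also named after their values were seen, all had low NTRs. They were Lgals3bp, Lamtor2, Cwc27, Nexn, Tctn1, Galk1, Dzip1 and Mapk11, with mean counts between 113 and 559. Lgals3bp, a secreted galectin-binding glycoprotein, had 3.68% and 2.67% at 15 min and 0% in both 30 min libraries (log2 difference -2.05 ± 0.371 SE; limma adjusted p = 0.0124), and then 3.57% at 60 min and 19.3% at 120 min. Tctn1, a protein of the ciliary transition zone, had 3.95%, 6.02%, 0.86% and 1.96%. In 3 more, Cwc27, Nexn and Mapk11, both 30 min values were also 0%.

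Whether some genes rose more than the typical gene was asked with the same limma fit after each library was centred on its median. In this limma fit over all 9065 genes, 0 passed the adjusted threshold, and the smallest adjusted p was 0.263. At an unadjusted p under 0.05, 768 genes were higher (8.47%) and 649 lower (7.16%). In the numbered zinc finger list 61 of 180 were higher and 2 lower by that unadjusted rule, in the Egr, Ier and other immediate early genes 9 of 20 and 0, and in the Klf family 6 of 11 and 0. In the extracellular matrix list 0 of 24 were higher and 6 lower, and in the ribosomal protein list 0 of 83 and 6. None of the 7 small nucleolar RNA host genes passed it in either direction, although they had the highest list medians. Their median relative log2 difference was -0.02. The NTR cannot exceed 100%, so a gene already high at 15 min has less room to rise on this scale. Without adjustment these counts describe the lists and call no single gene.

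Among the 2700 genes with a mean count of 1000 or more, where the NTR is more precise, 241 passed the adjusted threshold. Of these, 166 had a larger rise (6.15% of genes tested) and 75 a smaller one (2.78%). Larger and smaller refer to the log2 scale of the fit, not to the ratio of the NTRs. With a library left out, the count of 241 moved in both directions. Such a fit takes its spread only from the time that keeps both libraries, so it cannot show on which library the count depends. The genes with the larger rise had medians of 1.63% at 15 min, 14.3% at 30 min and 82.1% at 120 min. Chd1, a chromatin remodeller (chr17:15704967-15772610, 67.6 kb), had 0.8%, 0.31%, 13.9% and 13.8%, with a relative log2 difference of 1.80 (limma adjusted p = 0.00948). Nab2, a corepressor of Egr1, had 1.38%, 0.55%, 17.1% and 13.6%. Asxl1, a chromatin protein, had 0.85%, 0.79%, 13.3% and 15.0%, Marveld1 0.56%, 0.4%, 9.35% and 13.2%, and the F-box protein Fbxo11 0.18%, 0.32%, 7.16% and 10.3%. In each of these 5 the 15 min values were below 1.5% and the 30 min values above 7%.

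The genes with the smaller rise had medians of 1.02%, 1.52% and 14% at the same times. The 5 lowest relative differences were those of Ndufb10, a complex I subunit (0.27%, 1.77%, 0.77% and 0.08%), Arhgap1 (1.12%, 1.15%, 1.81% and 0%), Kntc1, a kinetochore protein (1.22%, 0%, 0.25% and 0.2%), Farsb, a subunit of phenylalanyl-tRNA synthetase (1.47%, 0.19%, 1.2% and 0%), and Syne2, a nuclear envelope protein (3.19%, 2.37%, 2.03% and 2.74%). None of these 5 was called different between the times in the uncentred fit. Scap, Mthfd1 and Hprt, together with Ndufb10 and Kntc1, had the lowest NTRs at 30 min among genes of that abundance, with means between 0.225% (Kntc1) and 0.545% (Hprt).

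Genes with few exons and short genes held more new RNA. The median NTR of the 240 genes with 2 exons in GENCODE M21 was 3.3% and 1.8% at 15 min and 12.3% and 13.3% at 30 min, and that of the 1373 genes with 21 or more exons was 0.98% and 0.47%, then 3.77% and 3.92%. New RNA at 15 min was held by 26.2% of the former and 1.46% of the latter. The 130 single-exon genes lay below those with 2 exons, with 2.51% and 1.7%, then 11.3% and 10.2%. Of them, 22.3% held new RNA at 15 min. Across genes the Spearman rho of exon number with the NTR was -0.219 and -0.212 in the 15 min libraries, -0.259 and -0.250 in the 30 min libraries, then -0.117 and -0.138 after 60 min. The span of the gene made a smaller difference to the median: in the shortest of 10 equal bins (up to 5.31 kb) it was 1.73%, 1.0%, 5.67% and 5.83%, and in the longest bin (over 119 kb) 1.21%, 0.585%, 4.72% and 4.74%. The share with new RNA at 15 min fell from 14.3% in the shortest to 3.75% in the longest bin, and at 30 min from 68.0% to 57.6%. At 60 min the rho with span was 0.0344 and 0.0168, and short genes were no longer the highest. The medians were then 13.1% and 13.7% in the shortest bin and 14.4% and 14.2% in the longest. They were highest, at 16.7% and 17.2%, in the bin from 48.7 to 71.1 kb.

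**Figure D5:**
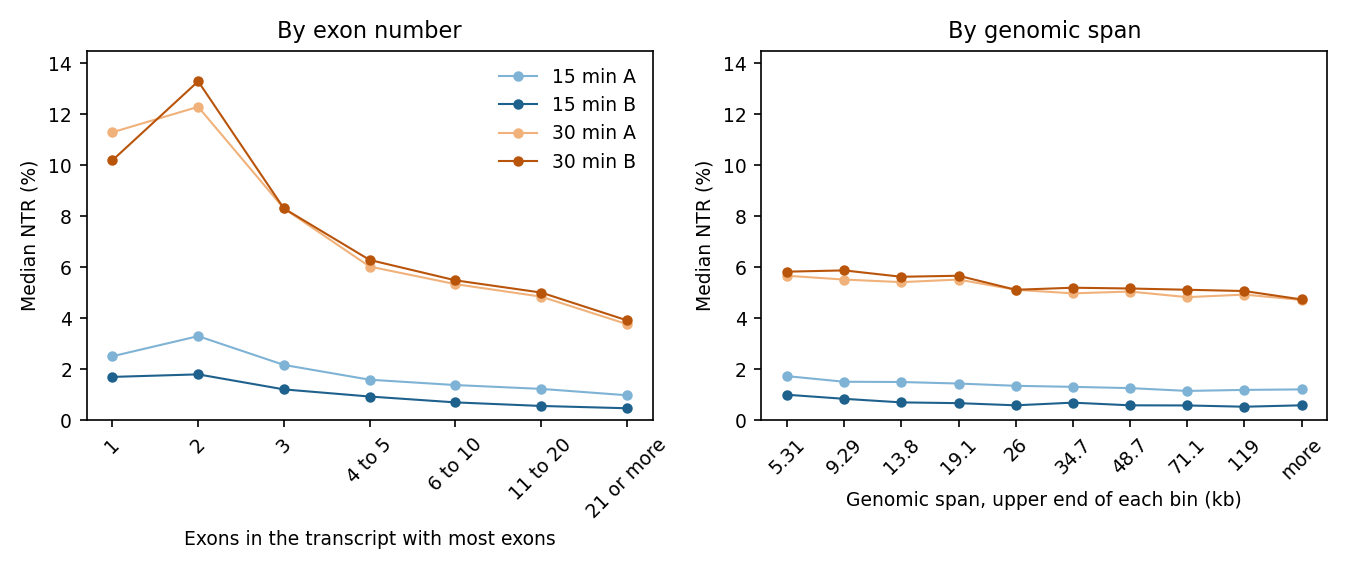
Median NTR (y axis, percent) of the counted genes by exon number (left) and by genomic span in 10 bins of equal gene number (right, x labels give the upper end of each bin in kb), with a line for each of the 4 libraries. At 30 min the median fell from 12.3% and 13.3% in genes with 2 exons to 3.77% and 3.92% in genes with 21 or more.

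The AU-rich 9-mer shown with the sequences went with more new RNA at 30 min. Genes without it had a median of 4.98% and 5.15% at 30 min, genes with 1 had 7.12% and 7.2%, genes with 2 had 7.13% and 8.18%, and the 59 genes with 3 or more had 10.6% and 10.1%. At 15 min the medians were 1.32% and 0.66% without it and 2.48% and 1.14% with 3 or more, so that the groups overlapped. Genes with the 9-mer have longer 3′ UTRs (median 2290 against 1200 bases for 1 site against none), and 3′ UTR length itself had a rho of 0.264 and 0.272 with the NTR at 30 min. Genes were also split into 5 equal bins by 3′ UTR length. Within the bin of the longest 3′ UTRs the medians at 30 min were 7.98% and 8.36% with the 9-mer (327 genes) and 6.69% and 6.9% without (1460 genes), and within the bin of the shortest 7.08% and 5.48% (33 genes) and 3.58% and 3.63% (1758 genes). In these comparisons both replicates showed the same order. Exon number, span, 3′ UTR length and read count vary together, and their separate parts in the NTR were not tested.

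The total read counts changed little between the times. In an edgeR quasi-likelihood fit over all 12 libraries, 0 of 11564 genes passed the adjusted threshold (smallest adjusted p = 1), and 249 had an unadjusted p under 0.05 (2.15%); DESeq2 gave 0 and 35. The median absolute log2 fold change was 0.0555 with a median SE of 0.0965. The read counts of genes with much new RNA were not called different either: Dusp1 had 1673 and 1571 reads at 15 min and 1406 and 1347 at 30 min, and Myc 1709 and 1639, then 1843 and 1346. Malat1 (12496 and 11074 reads at 15 min, 13430 and 13804 at 30 min) and Neat1 (1619 and 1244, then 1812 and 1726) were called higher only in fits without the filter on low counts or with the 4 libraries alone. The NTR differences above are therefore shares of RNA pools whose read counts were not called different between 15 and 30 min.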

How the data were processed

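The authors deposited a table of 17419 genes. Its read counts are estimated counts as deposited by the authors. Since 20.4% of them departed from a whole number by more than 1e-06, all were rounded for the tests. The NTR was deposited by the authors as a fraction per gene and labelled library, and the file headers name its posterior maximum, which was used here, its mean and the bounds of a 90% interval at the 0.05 and 0.95 quantiles. Cutadapt, Bowtie2 2.3.0 and STAR 2.7.10b are named in the submitters' processing notes; for the genome build, the counting tool and the use of strand, the sources used here give nothing. Loss of heavily converted reads at alignment was not tested.

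Libraries were grouped by the labels. limma 3.58.1 (trended, no covariate) was fitted to log2(NTR + 0.01) of the 4 libraries, with and without centring on each library's median. edgeR 4.0.16 quasi-likelihood used all 12 libraries (filterByExpr, TMM factors 0.970 to 1.02, common coefficient of variation 4.44%), and DESeq2 1.42.0 was the other tool. The threshold was a Benjamini-Hochberg adjusted p of 0.05, and the fits were tested on simulated data. Gene models come from GENCODE M21 (GRCm38), where 17396 of the IDs were found, and promoters from RefSeq. R 4.3.3 and Python 3.11.15 were used.

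The members and gene lists were chosen with earlier results of these data known. Genes were named by rule: the 8 highest NTRs at each time, the 5 largest rises in points, the 5 lowest NTRs at 30 min with a mean count of 1000, the 5 highest and lowest relative differences past the threshold, reference transcripts, and in each list the 3 highest and the lowest at 30 min. Any other gene was named after its values were seen. Replicate letters were not treated as pairs in the main fits.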

Additional observations from a re-analysis of the deposited data

How the results depend on the processing

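In the alternatives run, the sign turned in 16 NTR differences (5 of 31 named genes) and 19 read count differences (13 of 26), none past the threshold in either fit, and the counts of genes moved. The 6102 genes past the limma threshold became 2514 with a mean count of 1000 or more (fewer genes tested), 2020 with no minimum count, 3233 on a logit scale, and 0 to 5973 with a library left out: 0 without 30 min A (3084 at an unadjusted p under 0.05), 0 without 30 min B (2928), 3709 without 15 min B and 5973 without 15 min A. With a mean count of 1000 or more and a library left out, alternatives added after seeing the data, 2559, 2320, 1839 and 1781 passed without 15 min A, 15 min B, 30 min A and 30 min B. Relative to the library median, 0 genes became 241 with a mean count of 1000 or more, 1258 with no minimum, where the balance turned (155 higher and 1103 lower, against 768 and 649 at an unadjusted p under 0.05 with the count minimum) and 1890 with all 10 labelled libraries (1017 and 873). In the genes of 1000 or more counts, leaving out the same libraries in that order gave 444, 363, 38 and 6. For read counts, edgeR called 2 genes without a filter and 2 with the 4 libraries alone, Malat1 and Neat1 in both. The cause of these shifts was not tested.

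Genes with new RNA at 15 min numbered 1785 with the 0.05 quantile above 0.01, 79 above 0.05, 102 with a mean count of 1000 or more, and 827 to 1941 with a library left out. At 30 min there were 2352 above 0.05 and 1738 with a mean count of 1000 or more. Separated intervals held for 1703 genes with a mean count of 1000 or more and for 3501 to 5110 with a library left out. The median NTR at 15 min was 1.8% from the posterior mean. At 30 min it was 6.13% from the posterior mean, 4.18% with a mean count of 1000 or more and 4.52% with no minimum.

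The labels do not say whether the letters A and B pair the libraries. The differences A minus B at 15 and 30 min had a correlation across genes of -0.0088 for the NTR and 0.0473 for counts. With differences as noisy as these, such values cannot show whether the libraries were paired. With the letter as a replicate block 6295 genes passed the limma threshold, 0 relative to the median and 0 for counts. Of the tests of single named genes under the alternatives, 311 kept their side of the threshold for the NTR, 113 lost it and 3 gained it. The median width of the 90% interval was 2.04 to 5.83 points per library, which limits the precision of a single gene's NTR.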

Other observations

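Of the genes that did not meet the criterion for new RNA at 15 min, 5 were picked after their values were seen and are described here without a test. Zfp719 had an NTR of 1.11% and 0% at 15 min, then 29.9% and 47.1% at 30 min. Zbed4 had 1.56% and 2.57%, then 35.7% and 42.6%. Hoxa3, a homeobox gene, had 0% and 2.81%, then 30.0% and 49.3%. Irf1, an interferon regulatory factor, had 7.09% and 2.04%, then 46.2% and 51.3%, and Ptger4, a prostaglandin E receptor, 5.36% and 3.07%, then 39.0% and 40.9%. In each of the 5 both 30 min values lay above both 15 min values of the same gene. Their mean counts lay between 115 and 235 reads, so each NTR rests on few reads.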
